A study of Mus musculus with 18 samples.

Results

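Cytosolic ribosomal proteins are the protein parts of the ribosomes that translate messenger RNA in the cytoplasm. Their transcripts were followed here in mouse hippocampus. Genes were taken as members when the symbol began with Rpl or Rps and a digit, or was Rplp0, Rplp1, Rplp2 or Rpsa, with the S6 kinase genes (Rps6k) left out. This gave 59 of the 11738 gene symbols in 3 tables of read counts. In the deletion table there were 54 members among 10541 symbols, for tTA::miR132 there were 54 among 10799, and for tTA::miR212 there were 12 among 4618. The first of these tables shared 49 members with the second, and 12 were in all 3. The rule also took in Rps19bp1, whose product binds the ribosomal protein RPS19 and is not a ribosomal subunit, and the paralogs Rpl7l1, Rpl22l1, Rpl36al and Rps27l.

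All animals were of the strain C57BL/6. In the first genotype, CaMKII-Cre::miR-132/212f/f, the genes of the microRNAs miR-132 and miR-212 are removed by Cre under control of CaMKII, a promoter of excitatory forebrain neurons, so other hippocampal cells keep both genes. In the genotypes tTA::miR132 and tTA::miR212, the tetracycline transactivator tTA drives a microRNA transgene. Each genotype had its own nontransgenic controls, which carry neither driver, so an effect of Cre or tTA and an effect of the microRNA cannot be told apart. The labels give neither age nor sex. The design text has cDNA of 6 animals pooled to give the 3 replicates of a group, without saying which animals entered which pool. The deletion and tTA::miR132 tables are analysed here with 2 libraries in each group and the tTA::miR212 table with 3, which is 14 libraries in all.

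A cytosolic ribosome holds 1 copy of nearly every ribosomal protein. The exceptions are P1 and P2 (Rplp1 and Rplp2), which sit in pairs on P0 (Rplp0) and form the stalk that recruits elongation factors. Ribosomal protein messages are abundant, and many begin with a 5′ terminal oligopyrimidine tract (TOP), a run of C and T that starts at the first base and through which the kinase mTOR regulates their translation. Mammalian genomes also carry many processed pseudogenes of these messages, copies made by reverse transcription that have lost their introns. The 2 microRNAs bind messages through a shared seed.

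The mature microRNAs are shown because they are what was deleted or overexpressed. Capitals mark the seed, bases 2 to 8, which reads AACAGUC in both (RefSeq, GRCm38.p6).
mmu-miR-132-3p: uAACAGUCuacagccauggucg
mmu-miR-212-3p: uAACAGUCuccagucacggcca

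Start sites are shown because TOP messages are known by their first bases. Each window runs from 12 bases before to 18 bases into the transcript on the gene's own strand. Capitals mark the longest run of C and T that touches bases -3 to +4 (RefSeq, GRCm38.p6).
Rps6, chr4:86857350-86857379: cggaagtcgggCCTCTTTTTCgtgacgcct
Rps10, chr17:27635227-27635256: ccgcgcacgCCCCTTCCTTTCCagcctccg
Rps18, chr17:33955648-33955677: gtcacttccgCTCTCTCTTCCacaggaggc
Rplp2, chr7:141447639-141447668: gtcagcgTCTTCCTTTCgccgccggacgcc
Rplp0, chr5:115559455-115559484: ttcgggTTTCgaggaccgcctggttctcct
Rpl4, chr9:64173375-64173404: cttttcctgTgggagcagccgggtagagag
Rps6, Rps10, Rps18 and Rplp2 carried runs of 10, 13, 11 and 10 bases. Rplp0 and Rpl4 had runs of 4 and 1, both ending at base -3, before the listed start site. Of 55 start sites of the 45 members that matched the start-site table, 24 (43.6%) had a run of at least 5 C or T touching bases -3 to +4. The share was 31.9% of 69 start sites of mitochondrial ribosomal protein genes and 26.1% of all 32851 start sites. The first transcribed base was C at 27.3% of member sites and 16.3% of all sites. An annotated start that is a few bases off would hide a tract, and that was not tested.

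Stretches of coding sequence are shown because they differ in how many places of the genome hold them. Each line gives the first 30 coding bases that lie within 1 exon, with mm9 coordinates and all letters in lower case since no base is singled out.
Rps3, chr7:106632102-106632131: atggcggtgcagatttccaagaagaggaag
Rpl8, chr15:76734743-76734772: atgggccgtgtgatccgagggcagaggaaa
Rps10, chr17:27771391-27771420: atgttgatgcctaagaagaatcggattgcc
Rps18, chr17:34092092-34092121: tctctagtgatccctgagaagttccagcac
Rps2, chr17:24857221-24857250: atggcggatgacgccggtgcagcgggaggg
Rpl21, chr5:147645772-147645801: atgacgaacacaaagggaaagaggagaggc
The Rps3 and Rpl8 stretches had 1 exact match in the genome on either strand. The Rps10 stretch had 4, that of Rps18 had 9, that of Rps2 had 13 and that of Rpl21 had 43.

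The same count was made for every 30-base window within the coding exons of 58 members (GENCODE vM1, mm9; Rpl41 has no protein-coding transcript there). The median member had 8.28% of its windows at a single place in the genome, and 12 members had none, among them Rps10, Rps16, Rps6, Rpl21 and Rpsa. In 52 of 58 members (89.7%) fewer than 50% of the windows were single-copy. Mitochondrial ribosomal proteins, whose messages are read by the same cytosolic ribosomes, had a median of 100%, and 10 of 72 (13.9%) lay under 50%. Windows that span an exon junction are in the genome only where an intronless copy exists or the few bases past the junction match the intron. A median of 97.7% of such coding windows was found in the genome for cytosolic members, against 10.3% for mitochondrial ones. A read that matches several places may be counted at one of them, at all, or dropped. How multiply matching reads were treated is not given in the sources used here.

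Total counts per library ran from 8190899 to 14772907 in the deletion and tTA::miR132 tables and from 3140536 to 3739682 over all rows of the tTA::miR212 table. Deletion library 1 stood apart, with 1047 of 10541 genes at 0 (9.933%) against 73 to 120 in the other 3 libraries of its table, and miR132 control library 2 had 485 of 10799 at 0. Neuronal marker genes summed to 9040 and 9490 CPM in deletion controls and to 9780 and 11300 CPM in the deletion libraries. CPM are raw read counts per 1000000 counts of the library, the unit of all levels here (tTA::miR212: over 1 row per symbol). Of 7 neuronal markers tested, 3 had the groups apart upward and 0 downward, beside 14.3% and 17.9% of all genes. Nrgn, among the 3, had 1410 and 1510 CPM in controls and 3250 and 1540 in deletion libraries 1 and 2. For tTA::miR132 the neuronal sums were 9350 and 10500 CPM in controls and 9520 and 9680 in the transgenic libraries. Choroid plexus markers come from the epithelium beside the hippocampus. They summed to 4610 and 5230 CPM in deletion controls and to 512 and 1840 in the deletion libraries. Of 13 choroid plexus markers tested, 11 had the groups apart downward and 0 upward, beside 17.9% and 14.3% of all genes. Otx2 and Folr1 were among those at 0 in a library. In bulk tissue, fewer cells of a type and less RNA per cell cannot be told apart.

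The members together held 0.388% to 0.568% of all counts in the libraries of the deletion table. The range was 0.402% to 0.438% for tTA::miR132. For tTA::miR212 it was 0.199% to 0.218%, but over 12 members and over counts of 1 row per symbol. That range is not comparable with those of the 54 members in each other comparison. A few genes made up much of the members' share. The 5 highest members, Rpl4, Rplp1, Rps3 and Rpl8 among them, held 45.3% to 46.6% of the summed level in the libraries of the deletion table. Rpl4, a large-subunit protein of the peptide exit tunnel, had the highest level. It had 781 ± 8.11 CPM in deletion controls (SD, n = 2) and 727 ± 28.1 in miR132 controls (n = 2). In miR212 controls it had 354 ± 22.4 CPM (n = 3), over counts of 1 row per symbol. That level is not comparable with the other 2.

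Divided by coding length, the control levels in the deletion table ran from 0.9 CPM per kb for Rpl24 to 1260 for Rplp1, a span of 1390-fold, with a median of 83.1. The lower end rests on 8 and 0 counts of Rpl24. In the miR132 controls the span was 159-fold, from 7.0 CPM per kb for Rps2 to 1110 for Rplp1. In the deletion controls Rpl24, Rpl11, Rpl38 and Rpsa were the lowest 4, at 0.9, 6.07, 6.87 and 12.2 CPM per kb, and none of them had a single-copy coding window. In the miR132 controls the lowest 4 were Rps2, Rpl6, Rpl7a and Rps7, with 1.72% to 9.4% of windows single-copy. Mitochondrial ribosomal proteins spanned 37.5-fold in the deletion controls, around a median of 76.3 CPM per kb, and 23.8-fold in the miR132 controls. Members with at least 50% single-copy windows, 6 in all with Rpl4, Rps3, Rpl8, Rps27l and Rps19bp1 among them, had a median of 420.0 CPM per kb in the deletion controls, against 71.8 for the other 47. Across 53 members, the level per kb and the single-copy share had a Spearman correlation of 0.65 in the deletion controls and 0.58 in the miR132 controls. Across mitochondrial ribosomal proteins it was -0.01 (71 genes) and 0.06 (70 genes). In the tTA::miR212 table it was 0.38 over 12 members. With windows over all exons, untranslated ends included, the correlation across members was 0.41 and 0.45 in the deletion and miR132 controls and -0.18 in the miR212 controls. These values describe genes that share libraries and are not independent, and base composition and true message level were not separated from copy number.

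**Figure D1:**
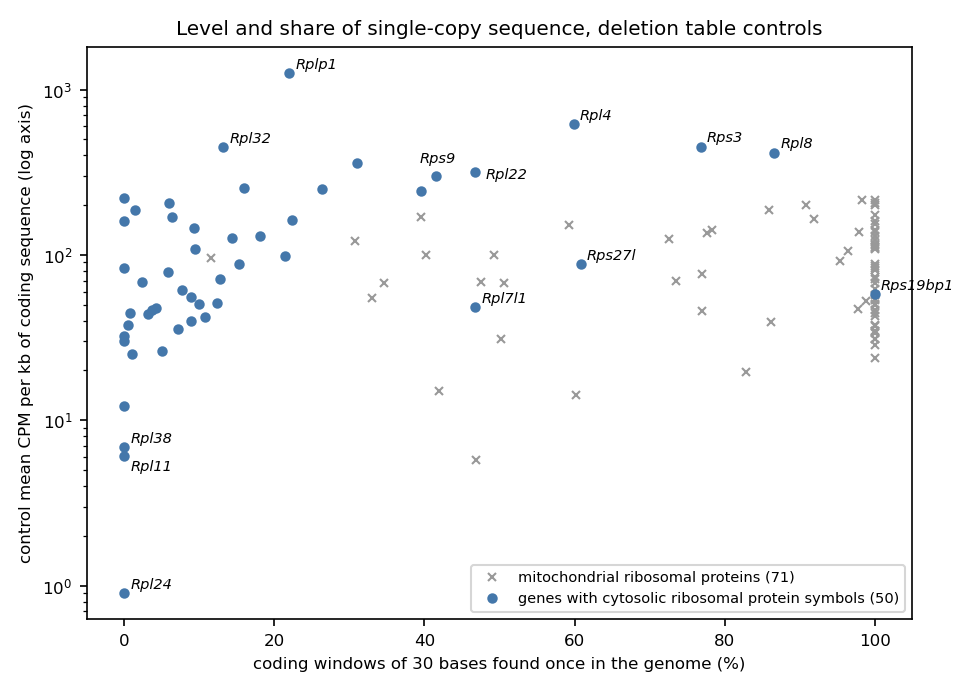
Mean control level per kb of coding sequence (log axis, deletion table, 2 control libraries) against the percentage of 30-base coding windows found at 1 place in the genome, 1 point a gene. The 50 cytosolic members plotted lie mostly below 50% and reach from 0.9 to 1260 CPM per kb, while the 71 mitochondrial genes lie mostly at 100%.

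The first comparison asked how these messages differ after loss of both microRNA genes. Of the 54 members 53 passed the filter on low counts (Rpl24 did not), and edgeR's quasi-likelihood test called none after Benjamini-Hochberg adjustment over all genes, nor did DESeq2 or limma-voom. Over all 10487 genes tested edgeR called none (0%), DESeq2 called 5 and limma-voom 1. No member had an unadjusted p under 0.05 with edgeR, against 0.839% of all genes. The median log2 fold change of the members (deletion minus control) was 0.04, with 30 above 0 and 23 below, beside -0.03 over all genes. Large-subunit genes had a median of 0.16 (29 genes) and small-subunit genes of -0.16 (19 genes).

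The summed level of the 54 members was 5006 and 4177 CPM in the controls and 5681 and 3882 CPM in the deletion libraries. The deletion libraries held both the highest and the lowest sum, so the groups overlapped. The difference of means was 190 CPM (exact permutation test, two-sided p = 1, where 2 against 2 libraries allow no p below 0.333). It turned to -710 CPM without deletion library 1 and to -225 CPM without control library 2. The standard errors were wide, with a median of 0.703 on the log2 scale over the members.

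The stalk proteins came to the following levels. Rplp0, the base of the stalk, had 90.3 and 95.8 CPM in controls and 129 and 98.9 in the deletion libraries, both above both controls (log2 fold change 0.32, SE 0.33, edgeR adjusted p = 0.999). Rplp1 had 512 and 347 CPM against 761 and 310, so the deletion libraries lay on either side of the controls (0.36, SE 0.46). Rplp2 had 62.4 and 25.4 CPM against 63.0 and 33.0, so 1 deletion library lay just above the controls and the other between them. Rpsa, a small-subunit protein also known as a laminin receptor precursor, had 9.54 and 12.1 CPM against 16.8 and 13.8.

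Rpl4, Rps3 and Rpl8, among the most abundant subunits, had small differences of group means. Rplp1, given above, is also among the most abundant and differed more (log2 fold change 0.36, SE 0.46). Rpl4 had 775 and 787 CPM in controls and 816 and 760 in the deletion libraries (log2 fold change 0.04, SE 0.17). Rps3, at the messenger entry, had 351 and 308 against 388 and 243, and Rpl8, near the peptidyl transferase centre, had 385 and 256 against 375 and 272. In Rpl4, Rps3 and Rpl8 the groups overlapped.

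Differences of many fold were found in genes of low level. Rps10, a protein of the small-subunit head (chr17:27767370-27772185, minus strand, mm9, 5 exons), had 17.6 and 10.4 CPM in controls and 1.06 and 0 in the deletion libraries, or 166 and 85 counts against 10 and 0. The ratio of the summed rates was 0.0367, with a 95% interval from 0.0174 to 0.0687 that covers counting error only. The edgeR log2 fold change of -4.63 had an SE of 2.89 (adjusted p = 0.999). With a library left out, the edgeR adjusted p was 0.0479 without deletion library 1, 0.0145 without deletion library 2 (a fit in which 43% of all genes were called) and 1 without either control library. Rps10 has no single-copy coding window. Of 1587 genes with a control mean of 10 to 20 CPM in this table, 25 (1.58%) were under 2 CPM in both deletion libraries.

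Rpl6, a large-subunit protein, had 45.7 and 38.5 CPM in controls and 8.61 and 27.3 in the deletion libraries. Rpl18, another, had 22.2 and 17.8 against 3.93 and 5.15, and here the deletion libraries lay close together. Both had the groups apart, with log2 fold changes of -1.22 (SE 0.78) and -2.12 (SE 1.45). Neither passed the test (edgeR adjusted p = 0.999 for each).

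Other large values came mainly from deletion library 1. Rps19bp1, the gene in the list with the smallest p, had 29.5 and 20.4 CPM in controls and 147 and 33.8 in the deletion libraries (log2 fold change 1.91, SE 0.79, unadjusted p = 0.0521). Rps25 had 10.5 and 8.3 against 55.8 and 7.94 CPM, and Rpl34 had 33.3 and 28.8 against 116 and 23.1. Rpl38, known for its part in translating Hox messages, had 1.91 and 0.977 against 21.3 and 2.27 CPM. Rpl11, a regulator of p53 through Mdm2, had 3.92 and 2.56 against 26.4 and 3.5. Rpl24 was counted 8 and 0 times in controls and 199 and 0 times in the deletion libraries. In Rps25, Rpl34, Rpl11 and Rpl24 deletion library 2 lay among or below the controls.

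Against the mean of the controls, with 1 CPM added, deletion library 1 had 21 of 54 members beyond 2-fold, 9 higher and 12 lower, beside 44.2% of all genes. In deletion library 2 it was 4 members, all lower, beside 10% of all genes. The control libraries were beyond 2-fold of each other in 6 members, beside 11.4%. The members' shares in these 3 cases, 38.9%, 7.41% and 11.1%, lay near or below those of all genes.

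**Figure D2:**
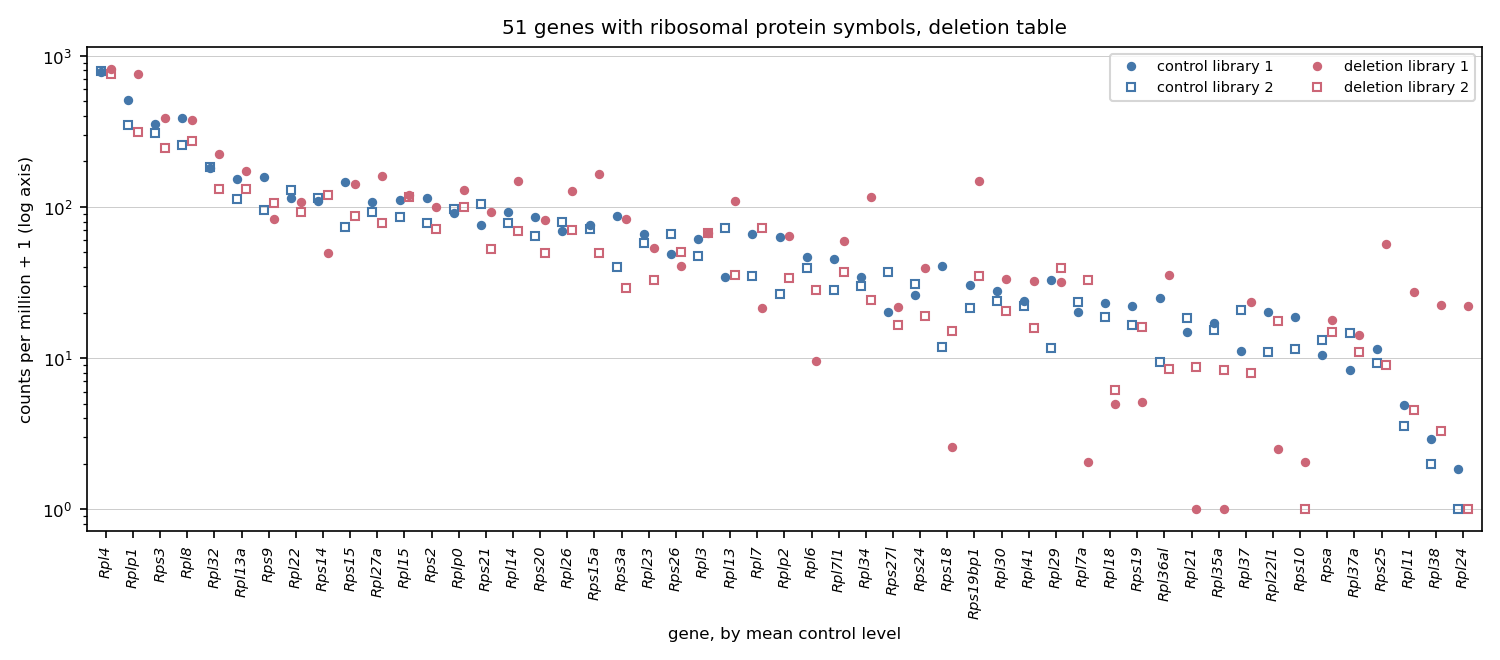
CPM plus 1 (log axis) of 51 members in each library of the deletion table, ordered by mean control level, with blue points for the 2 control libraries and red for the 2 deletion libraries. The first genes overlap, while to the right deletion library 1 departs both ways, from 147 CPM for Rps19bp1 to 0 for Rpl21 and Rpl35a.

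The deletion libraries lay above both controls in 7 members (13%), where 14.3% of all genes did, and below both in 9 (16.7%), where 17.9% did. The higher ones included Rplp0, Rpsa, Rpl3, Rpl15, Rpl38 and Rps19bp1, and the lower ones Rps10, Rps19, Rpl6, Rpl18, Rpl21, Rpl22, Rpl23 and Rpl35a. The shares were near the background. In the authors' deposited table, q was under 0.05 for 27 of 54 members (50%) and for 54.3% of all genes. Leaving out deletion library 2 made edgeR call 23 of 54 members, 12 higher and 11 lower (42.6%), beside 43% of all genes, and moved the members' median to 0.39. Leaving out deletion library 1 gave 1 called member of 53, Rps10 (1.89%), beside 8 of 10489 genes (0.0763%), and a median of -0.36. The part of neuronal marker levels, of choroid plexus content and of the zeros of deletion library 1 in these values was not tested.

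The tTA::miR132 libraries were compared with their controls in the same way. All 54 members passed the filter, edgeR called none, and of all 10734 genes 0% were called. Rps18 alone had an unadjusted p under 0.05, beside 2.82% of all genes, and was the 1 member of 54 (1.85%) that DESeq2 called, beside 39 of 10734 genes (0.363%). The median log2 fold change of the members was -0.01, with 26 above 0 and 28 below, beside 0 to 2 decimals over all genes.

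The sum over 54 members was 4375 and 4015 CPM in controls and 4368 and 4251 in the tTA::miR132 libraries. Both transgenic libraries lay between the controls. The difference of means was 114 CPM (exact permutation test, two-sided p = 1, smallest possible 0.333), and -9 CPM with TMM library sizes or -66 CPM without control library 2. Large-subunit genes summed to 2775 and 2768 CPM in controls and to 2864 and 2752 in the transgenic libraries. Small-subunit genes summed to 1458 and 1127 CPM against 1350 and 1382.

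Rps18, a protein of the small-subunit head (chr17:34088944-34092662, minus strand, mm9, 5 exons), had 7.17 and 18.9 CPM in controls and 0.135 and 0 in the tTA::miR132 libraries. The counts were 71 and 157 against 2 and 0. The ratio of summed rates was 0.00678, with a 95% interval from 0.000816 to 0.0248 for counting error only. The edgeR log2 fold change was -7.28 (SE 2.80, unadjusted p = 0.0238, adjusted p = 0.997). DESeq2 gave an adjusted p of 0.01, and the other alternatives, limma-voom and single libraries left out among them, gave 0.0974 to 1. Of 1586 genes with a control mean of 10 to 20 CPM in this table, 35 (2.21%) were under 2 CPM in both transgenic libraries. In Rps18, 8.9% of the coding windows were single-copy. In the deletion table the same gene had 39.8 and 10.9 CPM in controls and 1.59 and 14.2 in the deletion libraries, with the groups overlapping.

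Rps16, near the decoding site of the small subunit, had 10.2 and 10.7 CPM against 0 and 2.96, or 101 and 89 counts against 0 and 26. Rps6, the S6 kinase substrate, had 12.9 and 21.6 CPM against 5.62 and 10.3. Neither passed the test, with log2 fold changes of -2.88 (SE 2.61) and -1.17 (SE 1.16). These 2 genes fall outside the rule for named genes and were chosen after their values were seen.

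The other members among the 8 with the smallest p included large-subunit genes of moderate and of low level, Rpl6 (given below) and Rpl37 being low. Rpl13 had 73.6 and 60.0 CPM in controls and 43.6 and 37.6 in the tTA::miR132 libraries (log2 fold change -0.76, SE 0.46), and Rpl14 had 88.1 and 102 against 75.7 and 55.5 (-0.57, SE 0.38). Rpl30 had 30.7 and 52.0 against 21.9 and 27.2. In the opposite direction, Rpl15 had 67.1 and 48.8 against 71.5 and 111 (0.61, SE 0.41), and Rpl37 had 13.1 and 3.98 against 22.0 and 24.5 (1.41, SE 1.01). Rps3a, of the small subunit, had 42.2 and 38.3 against 61.1 and 63.0. In all 6 the groups were apart and the edgeR adjusted p was 0.997.

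In the stalk, Rplp2 had 45.7 and 43.5 CPM in controls and 25.5 and 34.3 in the tTA::miR132 libraries (log2 fold change -0.62, SE 0.55). Rplp0 had 98.2 and 49.0 against 62.2 and 99.5, and Rplp1 had 443 and 316 against 387 and 389, so both overlapped. Among the paralogs, Rps27l, a p53-responsive relative of Rps27, had 32.5 and 18.2 against 50.9 and 36.0 CPM, with the groups apart upward. Rpl36al had 20.1 and 24.6 against 10.3 and 11.6, with the groups apart downward. Rpl22l1 and Rpl7l1 overlapped. None passed the test.

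**Figure D3:**
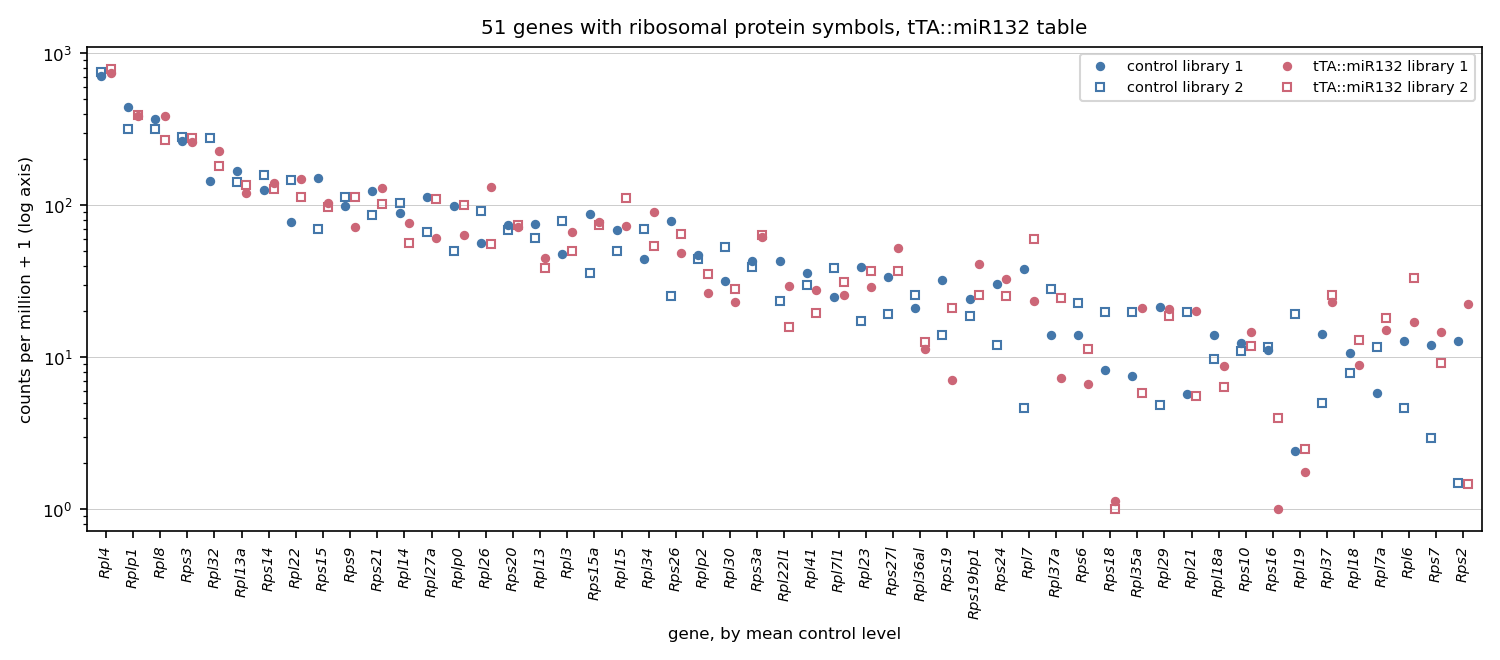
CPM plus 1 (log axis) of 51 members in each library of the tTA::miR132 table, ordered by mean control level, with blue points for the 2 control libraries and red for the 2 transgenic libraries. Rps18 is near the bottom in both transgenic libraries, at 0.135 and 0 CPM, and the control libraries themselves part widely in low genes such as Rpl19, at 1.41 and 18.3 CPM.

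The transgenic libraries lay above both controls in 8 members (14.8%), where 18.7% of all genes did. They lay below both in 11 (20.4%), where 14.2% did. In the authors' deposited table q was under 0.05 for 26 of 54 members (48.1%) and for 53.1% of all genes. The control libraries were beyond 2-fold of each other in 18 members, 33.3% beside 34.4% of all genes. Transgenic libraries 1 and 2 were beyond 2-fold of the control mean in 10 (18.5%) and 11 (20.4%) members, where 22.4% and 14.8% of all genes were. A mean of 2 libraries varies less than a single library, so these counts cannot be ranked against that between the controls. Oligodendrocyte markers summed to 4050 and 4140 CPM in the controls and to 4940 and 5180 in the transgenic libraries, and their part in the members' values was not tested.

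The tTA::miR212 table has 3 libraries a group and a smaller spread, with a biological coefficient of variation of 8.58% against 74.17% and 60.73% in the deletion and tTA::miR132 tables. It lists overlapping transcripts, 41 of its 11706 rows for 12 members, and the row with the highest mean count stood for each gene. edgeR called none of the 12 members and 0% of 4618 genes. No member had an unadjusted p under 0.05, beside 5.63% of all genes, and neither DESeq2 nor limma-voom called one. The median log2 fold change was 0.02, from -0.15 to 0.20, beside 0 to 2 decimals over all genes. The median standard error was 0.108.

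Rplp0 (chr5:116009476-116013736, plus strand, mm9, 7 exons) was the 1 member with the groups apart. It had 109, 117 and 105 CPM in controls and 133, 128 and 122 in the tTA::miR212 libraries, so each transgenic library lay above each control. The log2 fold change was 0.20 (SE 0.11, unadjusted p = 0.0722, edgeR adjusted p = 0.901). Across its 4 rows the fold change ran from 0.19 to 0.21. One of 12 members (8.33%) was higher in this way, beside 6.47% of all genes, and none was lower, beside 4.96%. Of 8 astrocyte markers 3 were also apart upward (Aqp4, Gja1 and Gfap, log2 fold changes 0.61, 0.27 and 0.36) and 1 downward, with none called by edgeR. The list summed to 6840 to 7260 CPM in controls and 6590 to 8610 in the transgenic libraries. Of 8 neuronal markers 1, Nrgn, was apart downward (-0.33). The choroid plexus marker Ttr had 782, 710 and 262 CPM in controls and 799, 40.1 and 670 in the transgenic libraries. Their part in the members' values was not tested.

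Rplp1, its partner in the stalk, went the opposite way without separating. It had 290, 282 and 307 CPM in controls and 287, 260 and 250 in the transgenic libraries (log2 fold change -0.15, SE 0.08, unadjusted p = 0.0864). Rps9 had 123 ± 10.8 against 133 ± 19.3 CPM (SD, n = 3) and overlapped. Rpl4 had 355, 331 and 376 against 354, 352 and 329 CPM (-0.05, SE 0.08). Rpl8 had 361, 322 and 305 against 360, 340 and 335 CPM (0.06, SE 0.08).

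The remaining members also overlapped. Rps3 had 214, 222 and 228 CPM in controls and 241, 228 and 221 in the transgenic libraries. Rpl22, which has a paralog in Rpl22l1, had 118, 104 and 84.8 against 119, 114 and 90.3. Rpl13a, known from the interferon-responsive GAIT complex, had 95.6, 98.5 and 102 against 88.9, 106 and 89.0. Rps14, Rps15 and Rps15a had log2 fold changes of -0.01, 0.02 and 0.02.

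The sum over the 12 members was 2110, 2060 and 2082 CPM in controls and 2180, 2133 and 1985 in the tTA::miR212 libraries. The transgenic libraries held the 2 highest sums and the lowest. The difference of means was 15 CPM (exact permutation test, two-sided p = 0.9, where 3 against 3 allow 0.1), and it turned to -25 CPM without transgenic library 1 and to -2 CPM without library 2. No member was beyond 2-fold of the control mean in any transgenic library, beside 0.152% to 0.65% of all genes. In the authors' deposited table no member had q under 0.05, as did 0.0866% of all genes.

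**Figure D4:**
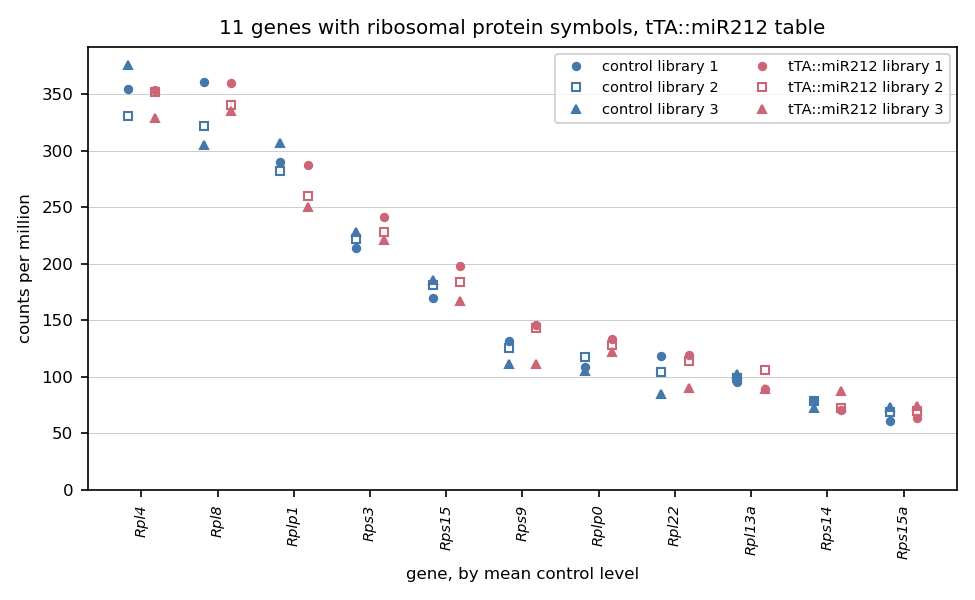
CPM (linear axis from 0) of 11 members in each library of the tTA::miR212 table, with blue for the 3 control libraries and red for the 3 transgenic libraries. The groups overlap in every gene plotted but Rplp0, whose transgenic libraries reach 122 to 133 CPM against 105 to 117.

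The tables have separate controls, so their fold changes can be set side by side. Of 49 members in both larger tables, 3 had the groups apart in both in the same direction (6.12%, beside 5.24% of all 9991 shared genes). Rpl15 and Rps19bp1 were among those, higher in both. Rps19bp1 had 23.0 and 17.6 CPM in miR132 controls and 40.2 and 24.5 in the transgenic libraries. Rpl6 alone was apart in opposite directions (2.04%, beside 5.54%), lower in the deletion and higher in tTA::miR132, where it had 11.7 and 3.61 CPM in controls and 16.0 and 32.0 in the transgenic libraries.

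**Figure D5:**
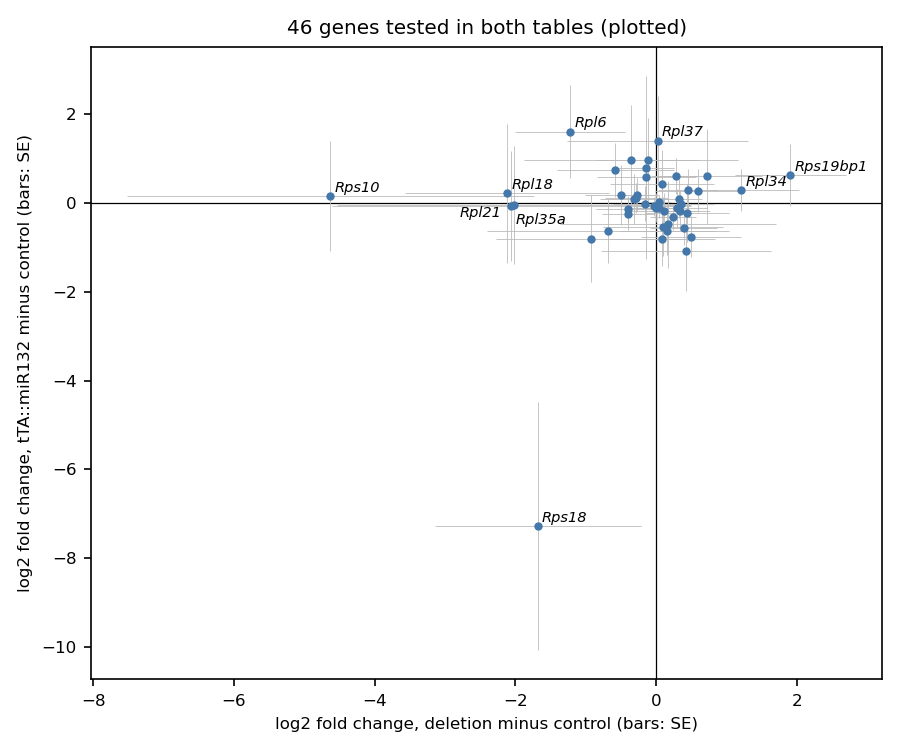
log2 fold change in the deletion (x) against that in tTA::miR132 (y) for 46 members tested in both tables, with bars for 1 standard error on each axis. Most members lie near 0 on both axes, Rps10 lies at -4.63 on the x axis only, and Rps18 lies at -7.28 on the y axis and -1.68 on the x axis.

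Control levels of some members differed between these tables. Rps2, at the messenger entry of the small subunit, had 114 and 76.8 CPM in the deletion controls and 11.8 and 0.482 in the miR132 controls, a ratio of 13.5 with 1 CPM added. Its 4 libraries in the tTA::miR132 table had 117, 4, 313 and 4 counts, so library 2 was low in controls and transgenic animals alike. For Rpl6 the ratio was 4.97. These were the 2 of 49 members over 4-fold apart (4.08%, beside 0.871% of shared genes), in tables that were counted separately. Only 9.4% of the coding windows of Rps2 and 4.2% of those of Rpl6 were single-copy.

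Replicates of the members that have single-copy sequence were closer together in some groups. Between the 2 deletion libraries, the median distance was 0.43 on the log2 scale for the 6 members with at least 50% single-copy windows and 1.04 for the 47 with fewer. Between the miR132 controls it was 0.30 and 0.76. Between the tTA::miR132 libraries it was 0.31 and 0.41. Between the deletion controls it was 0.49 and 0.40, the opposite order. The 6 also had higher levels, with medians of 290.0 CPM against 43.9 in the deletion controls, so level and copy number cannot be told apart here. Mitochondrial ribosomal proteins had median levels of 41.6 to 46.7 CPM. Their distance was 0.67 between the deletion libraries and 0.67 between the miR132 controls, beside 0.88 and 0.64 over all genes. It was 0.38 between the deletion controls and 0.35 between the tTA::miR132 libraries, beside 0.35 and 0.40.

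Genes around the ribosome were counted from lists. Of 20 translation factors and other messages known to carry a TOP tract, 20 were tested in the deletion and 20 in tTA::miR132. There edgeR called none in either direction, with 0 and 1 at an unadjusted p under 0.05. The shares of all genes under it were 0.839% and 2.82%. Eef1b2, an elongation factor subunit, had 260 and 204 CPM in controls and 177 and 144 in the deletion. Nap1l1, a histone chaperone, had 284 and 311 CPM in controls and 165 and 176 in tTA::miR132 (log2 fold change -0.85, SE 0.23, unadjusted p = 0.00294, edgeR adjusted p = 0.997). This gene was named for its small p within the list. Its transgenic libraries lay below both controls, as in 14.2% of all genes of that comparison.

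Of 43 ribosome biogenesis genes tested, none was called in the deletion (median log2 fold change -0.02) or in tTA::miR132 (0.07). Among them 0 and 4 had an unadjusted edgeR p under 0.05, beside 0.839% and 2.82% of all genes. Sbds, needed for maturation of the large subunit, had 127 and 179 CPM in miR132 controls and 71.5 and 79.3 in the transgenic libraries (-1.07, SE 0.33). Ncl, the nucleolar protein nucleolin, had 255 and 317 against 157 and 224. Polr1c, a subunit of RNA polymerases I and III, had 18.3 and 7.71 against 50.7 and 43.7. The groups were apart in these 3 genes, in both directions. All 3 were named for their small p within the list, a choice that favours genes with the groups apart. Of the 43 genes, 10 had the groups apart upward and 7 downward, beside 18.7% and 14.2% of all genes.

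Of 24 genes of mTOR and S6 kinase signalling, edgeR called none in the deletion or in tTA::miR132. None had an unadjusted p under 0.05, beside 0.839% and 2.82% of all genes. Eif4ebp2, a repressor of cap-dependent translation abundant in brain, had 55.8 and 51.4 CPM in controls and 171 and 65.4 in the deletion (1.18, SE 0.54). It had the groups apart upward, as in 14.3% of all genes of that comparison, with an edgeR adjusted p of 0.999. Eif4ebp2 was named for its small p within the list, and its difference came mainly from deletion library 1. Larp1, which binds TOP tracts, had 98.7 and 200 CPM in miR132 controls and 72.0 and 104 in the transgenic libraries, and overlapped.

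The tTA::miR212 table held 12 of the TOP messages, 12 of the biogenesis genes and 15 of the signalling genes. There edgeR called none, with 0, 1 and 1 at an unadjusted p under 0.05, beside 5.63% of all genes. Rheb, the small GTPase that activates mTOR, had 75.8, 93.1 and 74.2 CPM in controls and 66.7, 60.2 and 70.9 in the transgenic libraries (-0.31, SE 0.14, unadjusted p = 0.0437, adjusted p = 0.876). Gnb2l1, which encodes the 40S scaffold RACK1 and does not carry a ribosomal protein symbol, had 407 and 261 CPM in controls and 250 and 252 in the deletion. It had 213 and 227 against 298 and 272 CPM in tTA::miR132, and overlapped in tTA::miR212. The log2 fold changes were -0.39 (SE 0.28) in the deletion and 0.33 (SE 0.22) in tTA::miR132, neither called by edgeR. In these comparisons the groups were apart in opposite directions, as in 5.54% of all shared genes. Mitochondrial ribosomal proteins had median log2 fold changes of -0.07, 0.17 and -0.02 in the deletion, tTA::miR132 and tTA::miR212. Of them edgeR called none, with 0, 1 and 1 at an unadjusted p under 0.05, beside 0.839%, 2.82% and 5.63% of all genes.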

How the data were processed

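Polyadenylated RNA was sequenced and, per the series design text, aligned by the authors to mm9 with Bowtie 0.12.7. That text also names custom R scripts, and Cufflinks 1.2 for normalized abundances, a unit not used here. Which tool made the counts, and how it treated reads matching several places, is not given in the sources used here. Deposited by the authors were whole-number read counts of genes or transcripts, per the file headers, with q-values of their own comparisons, used only to count members under 0.05. A further 14 normalized columns were not used. Columns carry a group and a number, not the sample's letter. A check of pairing by number found no clear match, which cannot exclude pairing with 2 libraries in a group. The third library of 4 groups is not analysed here. A repeated header line was dropped (1 row).

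Each table was fitted apart with edgeR 4.0.16 (R 4.3.3): TMM factors, filterByExpr, robust quasi-likelihood test, Benjamini-Hochberg adjustment over all genes, threshold 0.05. It was also run on simulated data, and the share of changes found there is not reported here. Alternatives used DESeq2 1.42.0 and limma 3.58.1 (voom), other scaling, no filter and libraries left out. CPM uses raw library totals (tTA::miR212: over 1 row per symbol). Sums were compared by exact permutation (scipy 1.17.1). P-values measure the spread between libraries, described as pools of animals; counting intervals are exact binomial and cover counting error only, since reads carry no molecular identifiers. Named genes per comparison were the 8 smallest p, the 5 highest and 3 lowest control levels, the stalk, Rpsa, paralogs, Rps19bp1, members in all 3 tables with the groups apart in at least 2, and up to 3 genes of each pathway list. A few genes are counted in the totals but not reported singly here or plotted. Others were chosen after their values were seen. The members and lists were chosen with earlier results of these data known.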

Additional observations from a re-analysis of the deposited data

How the results depend on the processing

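Members called by edgeR stayed at 0 in all 3 comparisons with DESeq2 size factors, library totals, no filter on low counts and limma-voom; DESeq2 called 1 for tTA::miR132, beside 0.363% of all genes. With libraries left out the count ran from 0 to 23 in the deletion and was 0 throughout in the others. Correlations of same-numbered deviations ran from -0.079 to 0.021. With 2 libraries in a group the deviations mirror each other, so the check cannot exclude pairing by number. With the number as a replicate block 0 members were called in each comparison, and Rplp1 turned to 0.01 in tTA::miR132. Medians over members ran from -0.36 to 0.39 (deletion), -0.06 to 0.00 (tTA::miR132) and -0.01 to 0.03 (tTA::miR212) with libraries left out.

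Differences of the summed level ran from -710 to 1090 CPM (deletion), -66 to 294 (tTA::miR132) and -25 to 72 (tTA::miR212) with libraries left out, and the tTA::miR132 difference was -9 with TMM library sizes. In the deletion, fold changes that turned with a library left out ran from -3.21 to 0.19 (Rpl22l1), -0.44 to 1.97 (Rpl34), -1.13 to 1.35 (Rpl36al), -0.05 to 0.13 (Rpl4), -0.01 to 0.83 (Rpl7l1), -0.25 to 0.36 (Rpl8), -0.48 to 0.89 (Rplp1), -0.43 to 0.95 (Rplp2), -0.26 to 2.63 (Rps25) and -0.45 to 0.31 (Rps3). In tTA::miR132 they ran from -0.52 to 0.48 (Rpl32), -0.04 to 0.10 (Rpl4), -0.53 to 0.18 (Rpl7l1), -0.41 to 0.13 (Rpl8), -0.29 to 0.65 (Rplp0), -0.20 to 0.23 (Rplp1), -3.74 to 4.4 (Rps2), -0.13 to 0.01 (Rps3) and -0.03 to 2.43 (Rps7); Rpl32 was 0.05 with limma-voom and Rplp1 0.03 with library totals. In tTA::miR212 they ran from -0.12 to 0.04 (Rps14), -0.04 to 0.08 (Rps15) and -0.05 to 0.09 (Rps15a). The cause was not tested.

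Alternatives to the correlation of level and single-copy share were chosen after seeing the data. It was 0.74 and 0.66 in the deletion and tTA::miR132 controls without paralogs and Rps19bp1, 0.41 and 0.45 with windows of whole transcripts, and for tTA::miR212 -0.18 with whole transcripts. Where an arm was left with 1 library, that library was assumed to vary like the rest.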
